A study of Homo sapiens with 12 samples.

Results

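MYC, MAX and their partner factors form a network of transcription factors that compete for the same DNA sites. The network was read here through 10 genes chosen by name, the MYC family (MYC, MYCN, MYCL), the shared partner MAX, the repressors MXD1, MXD3, MXD4, MXI1 and MNT, and the MAX-like factor MLX. They are 10 of the 22784 gene symbols in the expression table, and 9 of them passed the filter on low values, a normalized count of at least 10 in at least 3 libraries, which kept 14839 genes in all. MYCN did not pass.

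The samples were SK-UT-1 cells, a human cell line from a uterine leiomyosarcoma, a malignant tumour of the smooth muscle of the uterus. The cells had been treated for 48 h with DMSO, the vehicle, with 5 µM JQ1 or with 5 µM I-BET 762. Both compounds occupy the acetyl-lysine pocket of the bromodomains of the BET proteins, JQ1 as a thienotriazolodiazepine and I-BET 762 as a benzodiazepine. The comparison asks how RNA levels differed between treated and vehicle cells, and the direct contrast asks where the compounds differed at the same dose and time. There were 3 DMSO libraries (replicates 13 to 15), 4 JQ1 libraries (17 to 20) and 3 I-BET 762 libraries (21 to 23), and DMSO 16 and I-BET 762 24 were not analysed here. All of them came from 1 cell line, and nothing in the labels says that the libraries of a group came from separate cultures, so the p-values measure the spread between these libraries, which may be technical.

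MYC proteins bind DNA only when paired with MAX, and the pair binds the E-box CACGTG and raises transcription of genes for ribosome assembly, metabolism and cell division. The MXD proteins, MXI1 and MNT also pair with MAX, bind the same letters and recruit the SIN3 and histone deacetylase corepressors, so the relative supply of the partners of MAX is thought to set the output of shared targets. MLX pairs with some of the MXD proteins and MNT and with the glucose-sensing factors MLXIP and MLXIPL, while MGA pairs with MAX.

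The E-box was looked for in the network's own promoters, because the factors can bind promoters of their own genes. The search used RefSeq promoters on GRCh38.p14, which run from 250 bases before to 50 bases after the start site. MYC had no matched entry, so its promoter was not searched. The other 9 of the 10 genes had an entry, and 3 of these held CACGTG, whose letters read the same on both strands. Among all 27305 genes with a promoter entry 8.8% held it, and among the 11244 matched genes of those tested 12.3% did. The 3 matches are shown in 30-base windows, 5′ to 3′ on the strand of the gene, with the E-box in capitals. They lie at chr4:2262330-2262359 on the minus strand for MXD4, at chr17:2401236-2401265 on the minus strand for MNT and at chr17:42567038-42567067 on the plus strand for MLX.
MXD4: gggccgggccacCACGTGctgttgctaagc
MNT: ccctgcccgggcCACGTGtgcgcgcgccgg
MLX: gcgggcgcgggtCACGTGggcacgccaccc
The E-box letters began 238, 193 and 50 bases before the start site of MXD4, MNT and MLX. These 3 genes were the tested members that passed the adjusted p-value described below with neither inhibitor. That split depended on the setting. MXD4 and MLX each passed with JQ1 in 1 of 19 alternative settings, and MYCL and MAX passed with JQ1 in 7 and 14. Whether the E-box and the changes go together among the members was not tested. The letters alone say nothing about whether a factor was bound.

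Values are given as normalized counts, which are counts of reads per gene divided by the library's scaling factor. The reads on genes numbered 35564586 to 39658989 per library, so that 3 reads, the limit that a count of 0 allows, corresponded to 2.73 to 3.30 normalized counts (counting error only). Fold changes are on the scale of log2(normalized count + 1), each with its standard error (SE) and a p-value adjusted by limma over the 14839 genes tested. A gene is called a DEG where its adjusted p is below 0.05 and its change is over 1.5-fold. The samples were bulk RNA, so fewer cells of a type and less RNA per cell cannot be told apart.

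Among the 9 network genes tested, MXD1 rose about 2-fold with both inhibitors, MYC rose 2-fold with JQ1 and 1.45-fold with I-BET 762, and MXI1 fell with both. The other 6 moved by less than 1.5-fold in every comparison. With JQ1, MYC and MXD1 were DEGs upwards and MXI1 was a DEG downwards. Over all genes tested 13.3% were DEGs upwards with JQ1 and 22.8% downwards, so counts of 2 and 1 among 9 genes are near the background and do not set the network apart. Rescaling the libraries to equal totals moved these shares to 8.2% upwards and 28.4% downwards, with the same 3 network genes called. At the adjusted p alone, 4 of 9 were higher with JQ1 against 36.0% of all genes, and 1 of 9 was lower against 35.6%. With I-BET 762, MXD1 was the only DEG upwards against a background of 8.96%, and no member was a DEG downwards against 17.9%. At the adjusted p alone MYC and MXD1 were higher with I-BET 762, where 29.9% of all genes were, and MXD3 and MXI1 were lower, where 31.3% were. No statement below rests on these counts, and the results are those of the single genes.

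**Figure D1:**
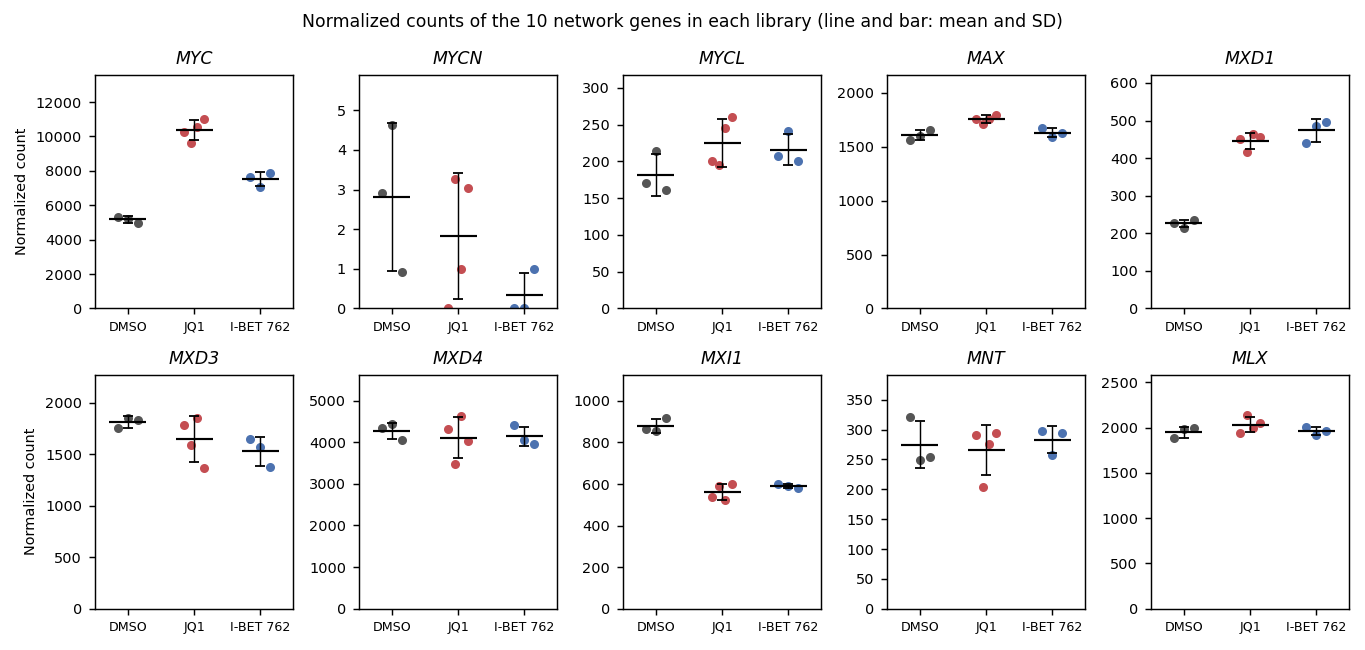
Normalized counts of the 10 network genes in the 10 libraries, 1 panel per gene with its own linear axis from 0. Points are libraries (3 DMSO, 4 JQ1, 3 I-BET 762), and the line and bar are the mean and SD. MYC and MXD1 lie higher, and MXI1 lower, in every treated library than in any DMSO library, while MYCN stays between 0 and 4.62.

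MYC (ENSG00000136997.22), the most expressed member, lies on chromosome 8 from 127735434 to 127742951 on the plus strand. It stood at 5339, 5219 and 4971 normalized counts in the 3 DMSO libraries, at 10278, 9632, 10551 and 11028 in the 4 JQ1 libraries, and at 7628, 7063 and 7860.5 in the 3 I-BET 762 libraries. The 3 groups did not overlap, with every JQ1 library above every I-BET 762 library and every I-BET 762 library above every DMSO library. The log2 fold change was 1.002 with JQ1 (SE 0.054, adjusted p = 1.28e-10) and 0.54 with I-BET 762 (SE 0.058, adjusted p = 8.22e-07), so MYC was not a DEG with I-BET 762. Set directly against each other, MYC was 1.38-fold higher with JQ1 than with I-BET 762 (log2 0.46, 95% interval 0.35 to 0.58, adjusted p = 2.05e-05). MYC was the only member that differed between the compounds at the adjusted p, where 27.3% of all genes tested did. None was a DEG in the direct contrast, where 5.31% of all genes were. Under the 19 alternative settings the MYC change stayed between 0.82 and 1.04 with JQ1, between 0.44 and 0.58 with I-BET 762, and between 0.38 and 0.50 in the direct contrast.

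MYCN and MYCL, the paralogs of MYC best known from neural and lung tumours, were scarce. MYCN (ENSG00000134323.13, chromosome 2 from 15940550 to 15947007) was read 3, 5 and 1 times in the DMSO libraries, 0, 3, 1 and 3 times in the JQ1 libraries and 0, 0 and 1 times in the I-BET 762 libraries. These values are at or near the limit of 3 reads, so no difference in MYCN was detectable at this depth. MYCL (ENSG00000116990.12, chromosome 1 from 39895428 to 39902256) stood at 170.5, 214.5 and 161.1 normalized counts in DMSO, at 199.99, 194.8, 245.1 and 259.6 with JQ1, and at 207.6, 240.6 and 199.8 with I-BET 762. DMSO 14 lay within the range of both treated groups. The MYCL change was 0.30 with JQ1 (SE 0.131, adjusted p = 0.0483) and 0.25 with I-BET 762 (adjusted p = 0.131). The JQ1 value passed the adjusted p in only 7 of 19 alternatives, and the interval of the direct difference ran from -0.23 to 0.33.

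MAX, the obligate partner of MYC and of the MXD proteins, changed little. MAX (ENSG00000125952.21, chromosome 14 from 65006174 to 65102695 on the minus strand) stood at 1566, 1604 and 1659.9 normalized counts in DMSO, at 1762.5, 1712.5, 1759 and 1797 with JQ1, and at 1674, 1588 and 1628 with I-BET 762. All 4 JQ1 libraries lay above the other 6, while DMSO and I-BET 762 overlapped. The change was 0.13 with JQ1 (SE 0.048, adjusted p = 0.0265) and 0.02 with I-BET 762 (adjusted p = 0.781), and the direct difference of 0.11 had an interval of 0.01 to 0.21 and an adjusted p = 0.106. The JQ1 rise reversed to -0.06 when libraries were rescaled to equal totals (adjusted p = 0.309), a setting that moved the median of all genes to -0.175. MAX overlaps FNTB, annotated on the opposite strand, which fell by 0.59 on the log2 scale with JQ1 and by 0.35 with I-BET 762. Whether the counting used the strand is not given in the sources used here, so reads shared between overlapping genes cannot be told apart.

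MXD1 was the repressor that rose. MXD1, formerly MAD1, is known as a MYC antagonist that appears as cells leave the cycle and differentiate. The gene (ENSG00000059728.11) lies on chromosome 2 from 69897688 to 69942945 on the plus strand. It stood at 228.6, 215.4 and 234.8 normalized counts in DMSO, at 450.5, 415.6, 464.2 and 456.4 with JQ1, and at 439.8, 485.2 and 497.1 with I-BET 762. Every treated library lay above every DMSO library by a wide gap, and the treated groups overlapped each other. The change was 0.98 with JQ1 (1.97-fold, SE 0.079, adjusted p = 1.59e-08) and 1.06 with I-BET 762 (2.09-fold, SE 0.084, adjusted p = 2.98e-08). The direct difference of -0.09 had an interval of -0.25 to 0.08 (adjusted p = 0.458), which leaves room for a difference of that size between the compounds. In the annotation MXD1 overlaps SNRNP27 on the same strand. SNRNP27, a spliceosome gene, rose by 0.42 with JQ1 and by 0.23 with I-BET 762. It was more abundant than MXD1, with means of 747.3 normalized counts in DMSO, 1004.0 with JQ1 and 877.1 with I-BET 762. Whether reads shared between these genes entered the MXD1 values was not tested.

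MXI1, the MXD2 protein in the older naming, was the repressor that fell. MXI1 (ENSG00000119950.21, chromosome 10 from 110207605 to 110287365 on the plus strand) stood at 865.85, 856.1 and 918.2 normalized counts in DMSO, at 538.4, 591.9, 523.2 and 601.45 with JQ1, and at 599.2, 591.5 and 579.8 with I-BET 762. No treated library reached the DMSO range. The log2 change was -0.64 with JQ1 (SE 0.068, adjusted p = 3.67e-07), a DEG, and -0.58 with I-BET 762 (SE 0.072, adjusted p = 4.79e-06), which lay just inside the 1.5-fold limit of 0.585. Rescaling to equal totals, rescaling to equal upper quartiles, or leaving out DMSO 13, DMSO 14 or I-BET 762 21 took the I-BET 762 value past that limit, to between -0.67 and -0.59. The direct difference was -0.07, with an interval of -0.21 to 0.08.

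The remaining repressors changed less. MXD3 (ENSG00000213347.11), the MXD protein tied to proliferating cells, stood at 1753, 1855.5 and 1835 normalized counts in DMSO, at 1783, 1594, 1855 and 1364 with JQ1, and at 1650.1, 1569 and 1373 with I-BET 762. All 3 I-BET 762 libraries lay below the DMSO libraries, and the JQ1 libraries spread across both ranges. The MXD3 change was -0.25 with I-BET 762 (SE 0.095, adjusted p = 0.0334) and -0.15 with JQ1 (adjusted p = 0.151), and the direct difference had an interval of -0.09 to 0.29. The I-BET 762 value passed the adjusted p in 14 of 19 alternatives. MXD3 overlaps RAB24 on the same strand and PRELID1 on the opposite strand.

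MXD4 and MNT, the repressors found in resting as well as cycling cells, did not pass the adjusted p with either inhibitor. MXD4 (ENSG00000123933.17) ranged from 4062 to 4435 normalized counts in DMSO. Its range was 3472 to 4623 in the JQ1 libraries and 3948.5 to 4400.4 in the I-BET 762 libraries. Its changes were -0.07 and -0.05, with adjusted p = 0.46 and 0.627. MNT (ENSG00000070444.15) stood between 248.7 and 320.6 in DMSO, between 204.55 and 294.1 in the JQ1 libraries and between 256.7 and 298.2 in the I-BET 762 libraries, with changes of -0.05 and 0.05 and adjusted p = 0.735 and 0.776. JQ1 18 held the lowest value of both genes, and leaving it out turned the sign of both JQ1 changes, to 0.01 for MXD4 and 0.07 for MNT. The direct differences had intervals of -0.18 to 0.15 for MXD4 and -0.38 to 0.18 for MNT.

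MLX, the second hub of the network, spanned 1879 to 1989 normalized counts over the DMSO libraries, 1944 to 2138 over the JQ1 libraries and 1917 to 2001 over the I-BET 762 libraries. Its changes of 0.06 and 0.01 did not pass the adjusted p, at 0.295 and 0.905, and the direct difference had an interval of -0.05 to 0.16. The sign of the MLX change depended on the scaling, since equal totals gave -0.13 with JQ1 (adjusted p = 0.015) and -0.09 with I-BET 762. The other factors that bind MAX or MLX stayed within 1.5-fold. MGA, the partner of MAX in a Polycomb complex, went from 7794 ± 132 (SD, n = 3) to 8440 ± 349 (n = 4) with JQ1 and 8601 ± 86.2 (n = 3) with I-BET 762, by limma changes of 0.11 (adjusted p = 0.0289) and 0.14 (adjusted p = 0.0155), and the JQ1 value turned to -0.07 at equal totals. MLXIP fell by 0.25 on the log2 scale with JQ1 (adjusted p = 0.0139), and its I-BET 762 value was -0.11 (adjusted p = 0.298). MLXIPL, the carbohydrate response factor, was the scarcest of the partners at 79.6 ± 20.9 in DMSO. It fell by 0.53 with JQ1 (adjusted p = 0.0242), and its value was -0.45 with I-BET 762 (adjusted p = 0.0765). DMSO 13 was the lowest DMSO library for MLXIPL, at 58.1 normalized counts, and without it both values passed 1.5-fold, at -0.73 and -0.65. The JQ1 value also passed it at equal totals and at equal upper quartiles.

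**Figure D2:**
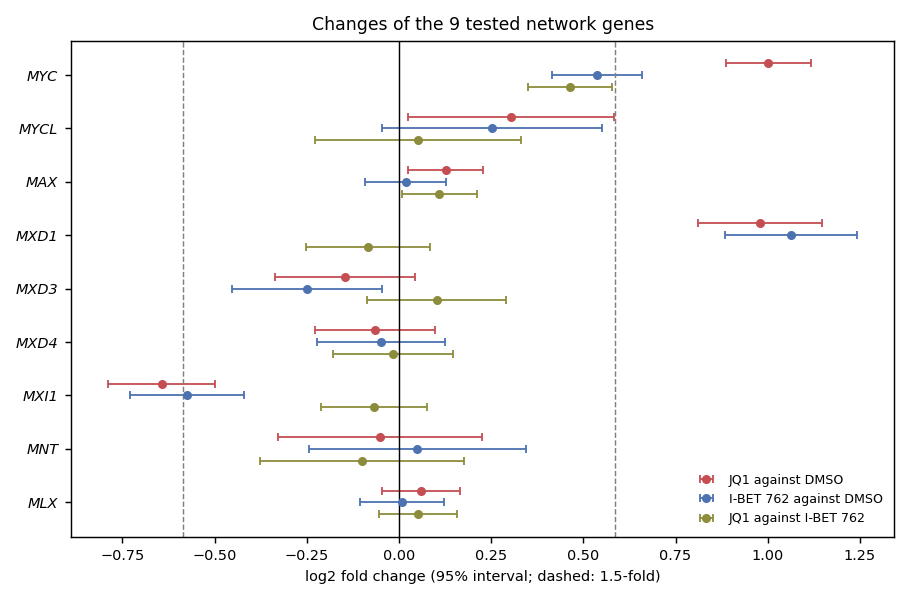
Log2 fold changes of the 9 tested network genes with their 95% intervals in the 3 comparisons of one limma model, and dashed lines at 1.5-fold. MYC is the only gene whose direct JQ1 against I-BET 762 difference passed the adjusted p (log2 0.46), and MXD1 and MXI1 move in opposite directions with both inhibitors.

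Levels were compared between genes per kilobase of the union of exons in Gencode V44. In DMSO the order was MYC at 847.3 ± 30.8 normalized counts per kb (SD, n = 3), MXD4 at 622.2, MLX at 458.2, MXD3 at 382.5, MAX at 257.3 and MXI1 at 149.0, and the ranges of these 6 genes did not overlap. MYCL at 36.6, MXD1 at 35.6 and MNT at 31.6 followed with overlapping ranges, and MYCN was last at 1.02. MYC alone made up 30.03% of the summed level of the 10 genes in DMSO, 46.6% with JQ1 and 39.3% with I-BET 762. MXD1 made up 1.26%, 1.93% and 2.39%, and MXI1 5.28%, 2.63% and 3.20% in the same order. MXD1 remained a small share of the repressors' RNA, and MXD4 stood at 597.7 and 601.8 per kb in the treated groups against 70.3 and 74.6 for MXD1. Among the 14839 genes tested, ranked by normalized count in DMSO without a length correction, MYC was 1559th, MXD4 1968th, MAX 5076th and MXD1 10122nd.

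The ratio of the summed MYC family level to the summed level of MXD1, MXD3, MXD4, MXI1 and MNT, both per kb, was 0.75, 0.72 and 0.71 in the DMSO libraries. It was 1.44, 1.57, 1.41 and 1.72 in the JQ1 libraries and 1.08, 1.07 and 1.24 in the I-BET 762 libraries. The ratio was lower in every vehicle library than in any treated one, and the JQ1 range lay above the I-BET 762 range. Where it lies against 1, like the levels and shares above, depends on the exon lengths used. The exon union of MYC was 6109 bases, and other lengths were not tried, so a ratio of 1 carries no meaning of its own. MYC to MAX moved in the same order, from 3.07 to 3.49 in DMSO, to 5.76 to 6.28 with JQ1 and to 4.56 to 4.94 with I-BET 762. Within the repressors, MXD1 to MXI1 went from 0.23 to 0.25 in DMSO to 0.65 to 0.83 with JQ1 and 0.68 to 0.80 with I-BET 762, with overlapping treated ranges. These ratios restate the gene values above and carry no test of their own. They are ratios of RNA, and protein was not measured here.

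**Figure D3:**
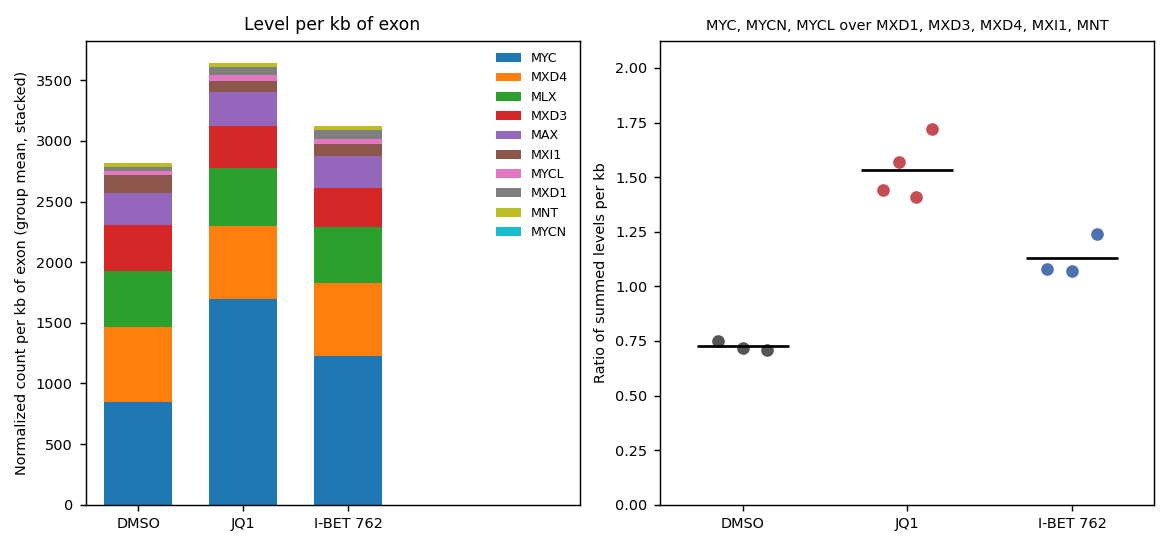
Left, group means of the 10 network genes per kb of exon, stacked. Right, the ratio of the summed MYC family level to the summed level of the 5 repressors in each library, with a line at the group mean. DMSO libraries lie at 0.71 to 0.75, I-BET 762 libraries at 1.07 to 1.24 and JQ1 libraries at 1.41 to 1.72.

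Genes widely described as targets that MYC raises were read from 3 lists, 50 genes in all, each of which passed the filter. With JQ1, 19 of the 50 were DEGs upwards and 3 downwards, and the median log2 change of the list was 0.44, beside 0.008 over all genes tested. With I-BET 762, 7 were DEGs upwards and 2 downwards, with a median of 0.23 beside -0.001 over all genes. At the adjusted p alone 34 were higher and 8 lower with JQ1, and 31 higher and 6 lower with I-BET 762. Over all genes tested the DEGs upwards and downwards were 13.3% and 22.8% with JQ1 and 8.96% and 17.9% with I-BET 762, and at the adjusted p alone 36.0% were higher and 35.6% lower with JQ1 and 29.9% and 31.3% with I-BET 762. Among genes with a mean normalized count of 100 or more, the median was 0.071 with JQ1 and 0.037 with I-BET 762. The median of all genes with JQ1 was -0.175 at equal totals. The lists were chosen with earlier results of these data known. Rescaling to equal totals left 11 of the 50 as DEGs upwards with JQ1, beside 8.2% of all genes. Leaving out DMSO 14 gave 11 with I-BET 762. In the direct contrast 30 of the 50 were higher with JQ1 and 2 lower at the adjusted p, beside 13.3% and 14.0% of all genes, and the DEGs among them included LDHA, ODC1 and TFRC.

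Of 22 ribosome assembly genes, 20 were higher with JQ1 and 19 with I-BET 762 at the adjusted p, beside 36.0% and 29.9% of all genes, with medians of 0.47 and 0.29. RRP9, a protein of the U3 small nucleolar ribonucleoprotein, went from 1420.5 ± 108.7 normalized counts (SD, n = 3) to 3014 ± 188 with JQ1 and 2319 ± 153 with I-BET 762, changes of 1.09 and 0.71 (adjusted p = 5.28e-10 and 3.58e-07). RRP12, a factor for export of the small ribosomal subunit, rose by 1.05 and 0.69. Both were higher with JQ1 than with I-BET 762 in the direct contrast, by 0.38 and 0.37. NOP2, another DEG with both inhibitors, was read at only 30.5 ± 2.004 normalized counts in DMSO. In the annotation 7 of the 50 targets overlap another coding gene on the same strand. Of these, NOP2, IMPDH2 and EIF4A1 were DEGs upwards and CCND2 was a DEG downwards with both inhibitors. GRWD1, PPAN and HSPE1 were DEGs with neither. Whether shared reads entered these values was not tested. Of the 22 genes 9 were DEGs upwards with JQ1 and 3 with I-BET 762, beside 13.3% and 8.96% of all genes. None was a DEG downwards, where 22.8% of all genes were with JQ1 and 17.9% with I-BET 762. The upward counts became 4 with JQ1 at equal totals, beside 8.2% of all genes, and 5 with I-BET 762 without DMSO 14.

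In the list of metabolism and translation genes, 9 of 21 were DEGs upwards with JQ1 and 4 with I-BET 762. Over all genes these shares were 13.3% and 8.96%. At equal totals the count with JQ1 was 6, beside 8.2% of all genes. ODC1, the rate-limiting enzyme of polyamine synthesis, stood between 10671 and 12131 normalized counts in DMSO, between 39759.6 and 47554 with JQ1 and between 27332 and 28553 with I-BET 762. Its changes were 1.88 (SE 0.063, adjusted p = 5.52e-13) and 1.28 (SE 0.067, adjusted p = 2.87e-10), and the direct difference was 0.60 (adjusted p = 7.9e-06). TFRC, the transferrin receptor that brings iron into cells, rose by 1.53 and 0.82 and differed directly by 0.71. SLC19A1, the reduced folate carrier, fell by 0.65 with JQ1, a DEG call that was lost without JQ1 18. It was the only DEG downwards of this list with JQ1, beside 22.8% of all genes. With I-BET 762 none of the list was a DEG downwards, beside 17.9% of all genes.

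The cell cycle targets did not move together. CCND1, cyclin D1, rose by 1.12 with JQ1 and by 0.58 with I-BET 762, the latter short of 1.5-fold unless DMSO 14, I-BET 762 21 or I-BET 762 22 was left out. CCND2, cyclin D2, fell from 6737 ± 62.8 normalized counts to 1840.5 ± 98.7 with JQ1 and 2539 ± 30.6 with I-BET 762, by 1.87 and 1.41 on the log2 scale. E2F2, a factor for S phase genes, fell by 1.78 and 1.29. The median of the 7 genes was 0.06 with JQ1 and -0.11 with I-BET 762.

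Of 7 genes described as repressed by MYC, 2 were DEGs upwards with JQ1 and 1 downwards, and 1 each way with I-BET 762. These counts are near the shares over all genes, 13.3% upwards and 22.8% downwards with JQ1 and 8.96% and 17.9% with I-BET 762. At equal totals and at equal upper quartiles the DEGs downwards with JQ1 were 2, beside 28.4% and 24.6% of all genes. Without DMSO 13 they were also 2. CDKN1A, the cell cycle inhibitor, was the DEG upwards with both compounds, at 2.45 and 1.22. THBS1, the matrix protein thrombospondin, fell from 9101 ± 237 normalized counts to 2080.4 ± 172.0 and 1709 ± 221, log2 changes of -2.13 and -2.42. THBS1 was lower with I-BET 762 than with JQ1 (direct difference 0.29, adjusted p = 0.0114).

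The proteins that work with the network were read from lists of 12 coactivators and cofactors and 12 corepressors. Of the coactivators and cofactors of MYC, 4 were higher and 6 lower with JQ1 at the adjusted p in the limma fit, and 1 was higher and 3 lower with I-BET 762, where 36.0% and 35.6% of all genes were with JQ1 and 29.9% and 31.3% with I-BET 762. None was a DEG upwards with either compound, where 13.3% of all genes were with JQ1 and 8.96% with I-BET 762. KAT2A, the acetyltransferase known as GCN5, fell from 2970.3 ± 79.9 to 1362 ± 96.4 and 1937 ± 71.7, by 1.13 and 0.62. CREBBP, another acetyltransferase, fell by 0.81 on the log2 scale with JQ1. These were the DEGs downwards of that list with JQ1, beside 22.8% of all genes. Equal totals raised their number from 2 to 4, beside 28.4% of all genes. With I-BET 762 KAT2A was the only DEG downwards of the list, beside 17.9% of all genes. Of 12 subunits of the SIN3, histone deacetylase and NCOR corepressors that the MXD proteins use, none was a DEG with either compound by limma. Over all genes 13.3% were DEGs upwards and 22.8% downwards with JQ1, and 8.96% and 17.9% with I-BET 762. At the adjusted p alone, 9 subunits passed with JQ1 (5 higher, 4 lower) and 4 with I-BET 762 (2 higher, 2 lower). The shares of all genes at that threshold are those given above. Equal totals made 2 of the 12 subunits DEGs downwards with JQ1, beside 28.4% of all genes.

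Enzymes that act on the MYC protein moved in both directions. STUB1, a ubiquitin ligase also called CHIP, rose from 3133 ± 55.5 normalized counts to 6782 ± 459 with JQ1 and 6392 ± 165 with I-BET 762, by 1.11 and 1.03 (adjusted p = 2.91e-11 and 4.47e-10). AURKA, the mitotic kinase that also shields MYC family proteins from degradation, fell by 1.10 and 0.91, and TRIM32, another ligase, fell by 0.70 and 0.61. FBXW7, the ligase subunit that recognises phosphorylated MYC, rose by 0.60 with JQ1, just past 1.5-fold, a call lost at equal totals, at equal upper quartiles, without DMSO 13 and without JQ1 18. SKP2 fell by 0.68 with JQ1. Of the 12 genes, 6 were higher and 3 lower with JQ1 at the adjusted p, and 5 higher and 3 lower with I-BET 762, near the background of 36.0% and 35.6% with JQ1 and 29.9% and 31.3% with I-BET 762.

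Both genes listed as targets of MLX with MLXIP were DEGs upwards with both compounds. Over all genes 13.3% were DEGs upwards with JQ1 and 8.96% with I-BET 762. MLX itself did not pass the test with either compound, and MLXIP was lower with JQ1. A link between these factors and the listed genes was not tested. ARRDC4, an arrestin-domain protein that limits glucose uptake, went from 331.5 ± 28.7 normalized counts to 1695 ± 96.5 with JQ1 and 945.0 ± 44.5 with I-BET 762, by 2.35 and 1.51 (adjusted p = 1.76e-13 and 1.76e-10). TXNIP, the thioredoxin-interacting protein, rose by 0.90 and 0.68. At equal totals 1 of the pair remained a DEG with I-BET 762, where 6.7% of all genes were DEGs upwards. ARRDC4 was higher with JQ1 than with I-BET 762 by 0.84 (adjusted p = 9.85e-07), and TXNIP by 0.22 (adjusted p = 0.0283).

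**Figure D4:**
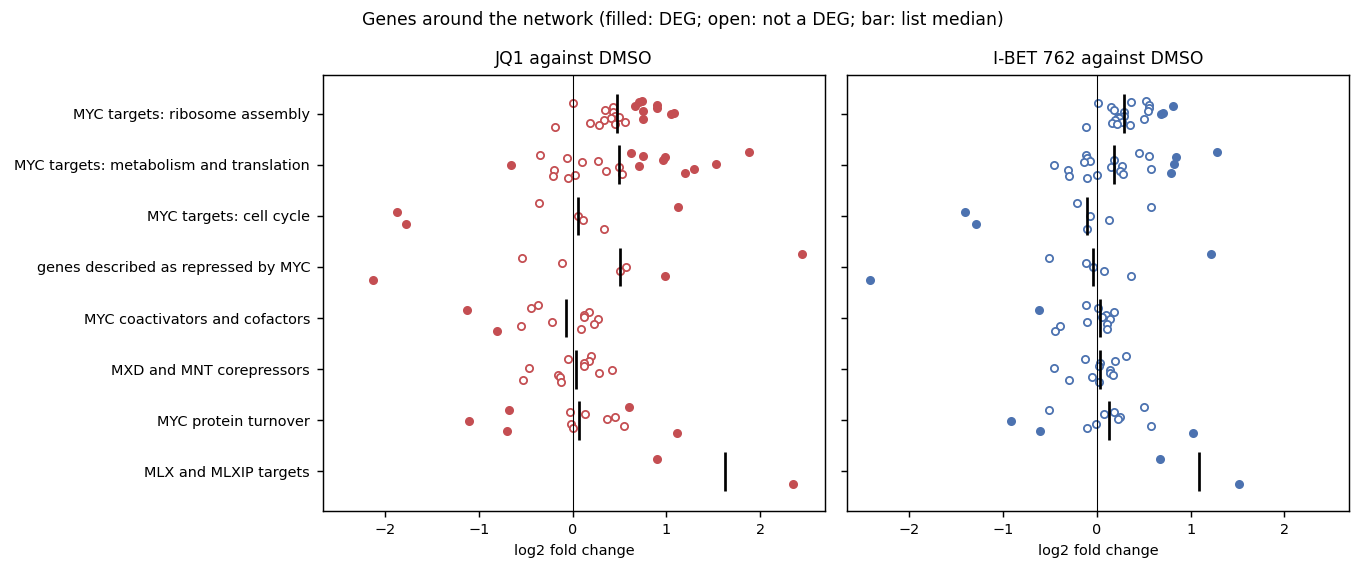
Log2 fold changes of the genes in 8 lists around the network with JQ1 (left) and I-BET 762 (right), filled where the gene was a DEG, with a bar at the list median. Ribosome assembly genes lie mostly right of 0, with medians of 0.47 and 0.29, and the cell cycle genes lie on both sides.

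The E-box was more frequent in the promoters of the 3 target lists, at 22 of the 41 matched genes (53.7%), than the 12.3% of matched genes tested. The lists were assembled from genes already described as MYC targets. Within the lists the median with JQ1 was 0.43 for the 22 genes with CACGTG and 0.43 for the 19 without, and with I-BET 762 it was 0.20 and 0.21. Over all matched genes tested, 12.5% of those with the E-box and 12.8% of those without were DEGs upwards with JQ1, and 7.42% and 8.81% were with I-BET 762.

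The genes whose profile over the 10 libraries was most like that of 3 members were named by the smallest root mean square difference in log2 value relative to the DMSO mean. For MYC these were AFMID (0.063), PARD6G-AS1 (0.068) and STK40 (0.068), with JQ1 changes between 0.96 and 1.04. For MXD1 they were NEO1 (0.050), TAF3 (0.067) and RALGAPA2 (0.068), and for MXI1 they were NDUFAF6 (0.050), PTPDC1 (0.056) and WDFY1 (0.058). The likeness is over 3 group levels and is a description only.

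Markers of cell identity moved with the treatment. The smooth muscle marker MYH11 had no entry in the expression table and could not be read. The summed level of the 6 smooth muscle markers read (ACTA2, TAGLN, CNN1, DES, SMTN and CALD1) was 20339.6 to 20968 normalized counts over the DMSO libraries. It was 10618 to 11229 with JQ1 and 11758 to 12327 with I-BET 762. ACTA2 and CALD1 made up most of the sum, at means of 7071 and 9439 in DMSO. ACTA2, TAGLN, CNN1, DES and CALD1 were DEGs downwards with both compounds, and SMTN rose by 0.19 and 0.20. CNN1 and DES, at 95.4 ± 13.2 and 187.1 ± 0.570 normalized counts in DMSO, were the least abundant of the 6 already in vehicle. The leukocyte marker PTPRC was at 0 in all DMSO and JQ1 libraries, PECAM1 and CDH1 were too low to test, and the 4 leukocyte, endothelial and epithelial markers together summed to 15.7 to 57.3 over all libraries. EPCAM, the tested marker among these 4, was a DEG downwards with JQ1 (log2 -1.21, adjusted p = 0.00203) and with I-BET 762 (-0.83, adjusted p = 0.0344). The mesenchymal marker VIM rose by 0.44 with JQ1 (adjusted p = 4.8e-06), and its I-BET 762 value was 0.12 (adjusted p = 0.104). The part of these changes in the network's values was not tested.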

How the data were processed

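Total RNA of SK-UT-1 cells was sequenced by the authors from strand-specific libraries. Per the labels and the study's methods, reads were trimmed with Trimmomatic after FastQC (0.73), aligned to hg38 with HISAT2 (2.2.1), counted per gene with featureCounts (2.0.3) on Gencode V41 and normalized with DESeq2, and samples judged outliers were left out. The strand setting of the counting is not given in the sources used here. The deposited table holds log2(normalized count + 1) for 22784 symbols in 10 libraries. It holds no raw counts, but after undoing the log, 99.77 to 99.81% of values per library were whole multiples of 1 read within 0.1 read, which gave 35564586 to 39658989 reads on genes per library.

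Genes with a normalized count of at least 10 in at least 3 libraries were tested with limma (3.58.1, R 4.3.3) on the deposited log2 values, with the 3 groups in one model, an intensity trend in the moderation and Benjamini-Hochberg adjustment over the 14839 genes. DEGs had an adjusted p under 0.05 and a change over 1.5-fold. The fit was also run on simulated counts with known changes, in which every gene had the same spread beyond counting error. That run does not measure how the fit performs on these data, and its outcome is not reported here. Levels between genes used exon lengths of Gencode V44 on GRCh38, and E-boxes were searched as CACGTG in RefSeq promoters. The members and lists were chosen with earlier results of these data known. The text names every network gene and partner, of lists of up to 4 genes every one, of longer lists the 2 largest rises and 2 largest falls among DEGs with both inhibitors, and the 3 genes most alike MYC and the members with the highest and lowest mean change. CCND1, NOP2, GRWD1, PPAN, IMPDH2, EIF4A1, HSPE1, SLC19A1, CREBBP, FBXW7, SKP2, LDHA and genes that overlap members were named after their values were seen. Alternatives were the pseudocount (0.5, 5), the filter, the scaling (equal totals, equal upper quartiles), the trend, fits of 2 groups only, limma-voom on the recovered reads, a fold of 2 and leaving out each library in turn. Some items are not reported here.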

Additional observations from a re-analysis of the deposited data

How the results depend on the processing

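Over the 9 tested members, the 3 partners and PVT1 in 3 comparisons each, 702 of 738 recomputed values kept their direction and their side of the threshold, 26 reversed, 9 newly passed it and 1 no longer did. MYC, MXD1 and MXI1 kept their direction against DMSO and an adjusted p under 0.05 in all 19 alternatives each. Of network genes called, the count with JQ1 went from 3 to 1 at a fold over 2. With I-BET 762 it went from 1 to 2 at equal totals and at equal upper quartiles, and leaving out single libraries gave 1 to 2. The added gene was MXI1. Among the 50 MYC targets, DEGs upwards with JQ1 went from 19 to 11 at equal totals, and with I-BET 762 leaving out single libraries gave 7 to 11, the highest without DMSO 14.

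Equal totals moved the median of all genes to -0.175 with JQ1, -0.097 with I-BET 762 and -0.088 in the direct contrast. The sign of smaller changes can therefore depend on the scaling. There the values reversed to -0.06 (JQ1) and -0.08 (I-BET 762) for MAX, -0.13, -0.09 and -0.04 (direct) for MLX, -0.05 for MNT with I-BET 762, -0.04 for MYCL in the direct contrast and -0.07 for MGA with JQ1. Equal upper quartiles reversed MAX with I-BET 762 to -0.02 and MLX to -0.01 and -0.03. Leaving out single libraries gave, with JQ1, -0.12 to 0.01 for MXD4 and -0.12 to 0.07 for MNT. With I-BET 762 it gave -0.00 to 0.04 for MAX, -0.02 to 0.17 for MNT and -0.02 to 0.02 for MLX. In the direct contrast it gave -0.02 to 0.13 for MYCL, -0.08 to 0.06 for MXD4, -0.17 to 0.02 for MNT and -0.16 to 0.03 for MLXIPL. The cause of these shifts beyond the change of scaling or samples was not tested. No paired analysis was possible because the groups share no replicate number. The depth limits MYCN, at 0 to 5 reads. Over all genes tested, limma-voom on the recovered reads called 1982 DEGs upwards and 3415 downwards with JQ1, beside 1979 and 3379 on the log2 values.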

Other observations

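PVT1, the noncoding gene beside MYC, fell with JQ1, where MYC rose. It stood at 1814, 1159 and 1319.5 normalized counts in DMSO, at 840.6, 780.1, 803.4 and 952.4 with JQ1, and at 1169, 1046 and 1284 with I-BET 762. Its log2 change was -0.74 with JQ1 (SE 0.12, adjusted p = 3.93e-05 by limma) and -0.27 with I-BET 762 (adjusted p = 0.0737), and it was lower with JQ1 than with I-BET 762 by a direct difference of -0.46 (adjusted p = 0.0093). DMSO 13 was the highest library, and without it the JQ1 change of -0.55 was short of 1.5-fold (adjusted p = 0.000108). CASC11 and MYCL-AS1, the noncoding genes that overlap MYC and MYCL, stayed at or below 6.09 and 7.62 normalized counts in every library and were not tested, and MYCNOS, which overlaps MYCN, did not pass the filter either.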
